A study of Mus musculus with 6 samples.

Results

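The heat shock proteins and chaperones described here were 33 genes, taken by symbol from the 54429 rows of each count table, and all 33 passed the filter on low counts together with 24419 genes in all. They comprise 5 HSP70 genes, 4 genes of the HSP110 group and HSP70 exchange factors, 8 HSP40 genes, 2 HSP90 genes, 5 co-chaperones, 3 small heat shock proteins, 4 mitochondrial chaperones and the 2 heat shock factors that control many of them. Bulk RNA came from prefrontal cortex of mice aged 6 to 8 weeks. In 3 libraries the cortex had received AAV9, an adeno-associated virus, carrying a short hairpin RNA against Kmt5b, and in 3 libraries it had received AAV9 carrying green fluorescent protein (GFP), so both groups share the injection and the virus. Kmt5b encodes a methyltransferase that acts on a lysine of histone H4. The genotype label was C57BL6/J in both groups, whereas the design text gave C57BL/6 x C3H mice and counted 2 GFP-injected animals, so not all 3 GFP libraries need be separate animals and p-values measure the spread between these libraries. Which cells expressed either construct was not given in the sources used here.

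Chaperones help proteins fold, keep unfolded chains from clumping and pass damaged proteins on for degradation. HSP40 proteins hand clients to HSP70 and start its ATP cycle, exchange factors such as the HSP110 proteins reset it, and HSP90 with its co-chaperones finishes the folding of kinases and steroid receptors. In heat or other proteotoxic stress, heat shock factor 1 binds heat shock elements in promoters and switches on the inducible members, whereas the constitutive members are abundant in neurons at rest.

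Total counts were 57486203, 48828638 and 54254006 in the Kmt5b shRNA libraries and 69869079, 29490771 and 74723284 in the GFP libraries. The 33 genes took 0.755% to 0.847% of the counts of a Kmt5b shRNA library and 0.574% to 0.672% of those of a GFP library. Kmt5b itself had 68.5, 80.3 and 63.9 counts per 1000000 (CPM) in the libraries labelled Kmt5b shRNA and 86.5, 79.7 and 80.95 CPM in the GFP libraries. These ranges overlapped (log2 difference −0.22 ± 0.10 SE, adjusted p = 0.303 by edgeR, exact permutation p = 0.2), so the directions below rest on the labels. No two-sided exact permutation test of 3 against 3 libraries can give a p below 0.1. Neuronal markers were abundant in both groups, with 2587, 2783 and 2373 CPM of the synaptic gene Snap25 in the Kmt5b shRNA libraries and 3305, 2664 and 2465 CPM in the GFP libraries.

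By edgeR's quasi-likelihood test with Benjamini-Hochberg adjustment over all 24419 genes at a threshold of 0.05, 8 of the 33 genes were higher in Kmt5b shRNA cortex and none was lower. In the same test 2.77% of all genes were higher and 5.69% were lower. At an unadjusted p under 0.05, 10 of the 33 passed in either direction, and 17.4% of all genes did. The 8 genes were the HSP70 gene Hspa8, the HSP90 gene Hsp90aa1, the HSP40 genes Dnajb6 and Dnaja1, the small heat shock proteins Hspb1 and Hspb8, and the mitochondrial pair Hspd1 and Hspe1. They span 5 of the 8 families rather than 1, and each of these families also held a gene that did not pass. The median log2 difference was 0.03 over the 33 genes and −0.02 over all genes tested. In bulk tissue, fewer cells of a type and less RNA per cell cannot be told apart.

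**Figure D1:**
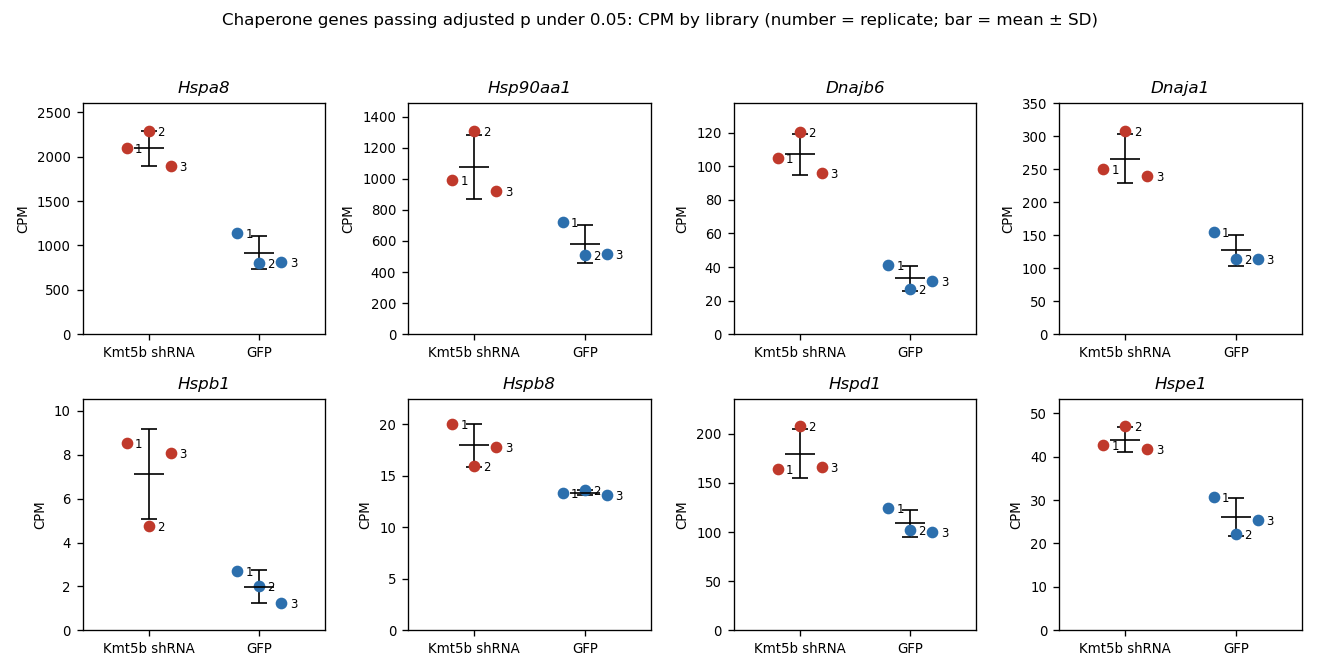
CPM of the 8 chaperone genes that passed the test, by library, with Kmt5b shRNA in red and GFP in blue. Points are numbered by replicate and the bar is the mean ± SD of 3 libraries. In each panel the 3 Kmt5b shRNA libraries lie above the 3 GFP libraries, also in Hspb8, where the lowest Kmt5b shRNA library had 15.9 CPM and the highest GFP library 13.6 CPM.

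All 8 genes that passed had ranges that did not overlap, and of the other 25 only Hspa12a did so, with lower values. Among all genes tested, 9.84% had all Kmt5b shRNA libraries above all GFP libraries and 12.7% had them all below.

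Many genes for abundant cytosolic proteins have copies elsewhere in the genome that arose from their spliced mRNA, called processed pseudogenes. A read from such a gene may match a copy about as well as the gene, and the read counting then decides which of them receives it. Of the 33 genes, 11 had at least 1 annotated copy, with 44 copies in all, of which 39 are intronless and 5 are processed pseudogenes annotated with more than 1 exon. Of the 11 genes with a copy, 7 passed as higher, with a median log2 difference of 0.74 over all 11. Of the 22 genes without one, 1 passed, Hspb8, and the median was −0.01. Among all genes tested, 18.5% of those with a copy were higher, against 1.52% of genes that neither had a copy nor were one. Each gene that passed and has a copy is therefore given below alone and together with its copies. For the latter, the same test was refitted on all genes after the counts of every copy were added to its gene. In that refit 1.11% of genes were higher and 1.01% lower, and 3 of the 33 chaperone genes passed, all higher, Hspa8, Hspb1 and Hspe1. With the intronless copies alone added, 1.23% of genes were higher and 1.36% lower, and 5 of the 33 were higher, these 3 and also Hsp90aa1 and Dnajb6.

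The sequences show how alike gene and copy are. Each pair below gives 90 bases of the coding sequence, chosen to hold at least 1 difference, with differing bases in capitals. The first pair is Hspa8 and Gm8355, with 98.7% identity over the coding sequence. The second is Hsp90aa1 and Gm12346, with 99.5% identity. The third is Dnajb6 and Gm6395, with 99.1% over the 696 aligned bases. The last is the inducible pair Hspa1a and Hspa1b, both functional genes on chromosome 17, with 99.4% identity and 11 differing positions. They were read from GENCODE M21 (mm10).
Hspa8: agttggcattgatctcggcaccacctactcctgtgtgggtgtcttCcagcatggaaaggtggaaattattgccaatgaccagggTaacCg
Gm8355: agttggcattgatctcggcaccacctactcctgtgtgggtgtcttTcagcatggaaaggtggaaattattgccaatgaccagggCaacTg
Hsp90aa1: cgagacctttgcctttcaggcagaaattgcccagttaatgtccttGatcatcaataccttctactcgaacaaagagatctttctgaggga
Gm12346: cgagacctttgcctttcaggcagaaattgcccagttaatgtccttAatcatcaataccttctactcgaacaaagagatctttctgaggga
Dnajb6: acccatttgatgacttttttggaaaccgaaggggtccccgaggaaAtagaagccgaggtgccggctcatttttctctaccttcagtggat
Gm6395: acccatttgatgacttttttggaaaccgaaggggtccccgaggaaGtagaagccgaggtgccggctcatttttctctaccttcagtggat
Hspa1a: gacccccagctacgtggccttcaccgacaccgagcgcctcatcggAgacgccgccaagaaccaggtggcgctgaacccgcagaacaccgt
Hspa1b: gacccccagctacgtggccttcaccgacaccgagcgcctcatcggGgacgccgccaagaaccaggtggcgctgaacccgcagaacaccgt

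The heat shock factors did not pass the test. Hsf1, the main activator of the heat shock response, had 30.6, 23.9 and 29.5 CPM in Kmt5b shRNA libraries and 25.3, 26.3 and 25.3 CPM in GFP libraries. Hsf2, a second factor of the family with roles in development, had 35.3, 43.1 and 32.3 CPM in Kmt5b shRNA libraries and 37.9, 35.9 and 38.3 CPM in GFP libraries. In both genes the GFP libraries lay close together and within the range of the Kmt5b shRNA libraries, with log2 differences of 0.13 ± 0.11 (SE, adjusted p = 0.662) for Hsf1 and −0.02 ± 0.11 (adjusted p = 0.967) for Hsf2 by edgeR.

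Among the HSP70 genes, Hspa8 encodes Hsc70, the constitutive HSP70 that also strips clathrin from endocytic vesicles at synapses. It lies on chromosome 9 from 40800984 to 40810087 (mm10). Hspa8 had 2099, 2290 and 1899 CPM in Kmt5b shRNA libraries and 1139, 805 and 814 CPM in GFP libraries. Every Kmt5b shRNA library lay above every GFP library, by 1.19 ± 0.14 on the log2 scale (SE, adjusted p = 1.9e-05), a 2.28-fold difference. Its 11 copies held 0.558 ± 0.073% of the reads of gene and copies in Kmt5b shRNA libraries and 10.7 ± 0.21% in GFP libraries (SD, n = 3 each). The copy with the most reads in GFP libraries was Gm8355, on chromosome 10, with 2.67, 3.16 and 2.31 CPM in Kmt5b shRNA libraries and 101.9, 62.5 and 65.4 CPM in GFP libraries. In Kmt5b shRNA libraries Gm6210 held more, 524 counts over the group against 426 of Gm8355. With all copies added, Hspa8 stayed higher, at 2100, 2289 and 1898 CPM in Kmt5b shRNA libraries and 1281, 909 and 914 CPM in GFP libraries, a log2 difference of 1.02 ± 0.14 (adjusted p = 0.00069 by edgeR).

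The stress-inducible HSP70 genes did not pass the test. Hspa1a had 2.35, 2.07 and 2.39 CPM in Kmt5b shRNA libraries and 2.48, 2.28 and 1.39 CPM in GFP libraries. Hspa1b had 5.13, 3.59 and 4.43 CPM in Kmt5b shRNA libraries and 5.25, 8.62 and 2.28 CPM in GFP libraries. In both genes the groups overlapped, and in Hspa1b the GFP libraries alone spanned the range of the Kmt5b shRNA libraries. The log2 differences were 0.16 ± 0.26 for Hspa1a (adjusted p = 0.856) and −0.27 ± 0.43 for Hspa1b (adjusted p = 0.849) by edgeR. Since reads of this near-identical pair could be split between the rows, their sum was tested as well. It was 7.49, 5.66 and 6.82 CPM in Kmt5b shRNA libraries and 7.73, 10.9 and 3.67 CPM in GFP libraries, with a log2 difference of −0.14 ± 0.35 (adjusted p = 0.910). Without GFP replicate 2 the sum differed by 0.24, so its sign rests on that library. Reads that matched both genes equally and were left out by the counting, if any, would be missing from the sum too.

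Hspa2, best known from the testis and also present in brain, and Hspa12a, a distant HSP70 relative, did not pass either. As scaled in the fit of all genes, Hspa12a alone of the 33 had every Kmt5b shRNA library below every GFP library. It had 248.0, 260.9 and 214.0 CPM in Kmt5b shRNA libraries and 299.5, 264.1 and 282.2 CPM in GFP libraries. Its log2 difference was −0.23 ± 0.10 (adjusted p = 0.279 by edgeR).

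Of the exchange factors, Hspa4, Hspa4l and Hsph1 encode HSP110 proteins, and Bag3 encodes a co-chaperone that is induced in stress and routes clients to autophagy. None of the 4 passed, none had an unadjusted p under 0.05, and their log2 differences ran from −0.08 to 0.09. Hspa4, the most abundant of them per kilobase, had 311.0, 340.9 and 291.7 CPM in Kmt5b shRNA libraries and 362.1, 285.1 and 288.8 CPM in GFP libraries, and the groups overlapped. Bag3 was among the lowest of all 33 genes, with 1.93, 2.45 and 3.01 CPM in Kmt5b shRNA libraries and 2.51, 2.77 and 2.53 CPM in GFP libraries.

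Among the HSP40 genes, Dnajb6 encodes a chaperone that keeps polyglutamine and amyloid peptides soluble. It lies on chromosome 5 from 29735688 to 29818134. Dnajb6 had 104.8, 120.5 and 96.01 CPM in Kmt5b shRNA libraries and 41.1, 27.0 and 31.4 CPM in GFP libraries. The groups were far apart, with a log2 difference of 1.69 ± 0.14 (SE, adjusted p = 1.4e-06 by edgeR). Of the reads of Dnajb6 and its 7 copies, the copies held 7.58 ± 0.75% in Kmt5b shRNA libraries and 50.8 ± 2.7% in GFP libraries (SD, n = 3 each). Gene and copies together had 112.2, 129.2 and 104.2 CPM in Kmt5b shRNA libraries and 88.5, 52.2 and 64.6 CPM in GFP libraries. Those groups still did not overlap, but the log2 difference was 0.75 ± 0.17 and the adjusted p = 0.053 missed the threshold. With the intronless copies alone added, the adjusted p was 0.046 by edgeR, a call that was kept in 1 of the 6 fits that leave out a library.

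Dnaja1, a farnesylated partner of HSP70, lies on chromosome 4 from 40722150 to 40737149. It had 249.9, 308.3 and 238.9 CPM in Kmt5b shRNA libraries and 154.3, 113.2 and 113.9 CPM in GFP libraries, and the groups did not overlap. The log2 difference was 1.06 ± 0.14 (adjusted p = 6.2e-05 by edgeR). Its 3 copies held 3.58 ± 0.05% of the reads in Kmt5b shRNA libraries and 34.6 ± 1.61% in GFP libraries (SD, n = 3 each). With them the log2 difference was 0.48 ± 0.14 (adjusted p = 0.144). Dnaja1 also shares 608 bases of exon with Smu1 on the other strand, and whether the counting used strand was not given in the sources used here.

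The other 6 HSP40 genes did not pass. They include Dnajb1, the classical stress-inducible HSP40, with 71.1, 63.6 and 55.0 CPM in Kmt5b shRNA libraries and 81.5, 61.5 and 59.1 CPM in GFP libraries. Dnaja2, the most abundant of the family per kilobase, had 173.1, 197.7 and 160.8 CPM in Kmt5b shRNA libraries and 190.6, 156.8 and 152.9 CPM in GFP libraries. Both genes overlapped between the groups. Dnajb2, whose brain isoforms act on ubiquitinated clients, differed by −0.28 ± 0.11 with an adjusted p of 0.150 by edgeR, the largest log2 difference below 0 among the 33 genes.

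Of the HSP90 pair, 1 gene passed. Hsp90aa1 encodes the inducible HSP90 alpha and lies on chromosome 12 from 110690605 to 110702728. It had 993, 1311 and 922 CPM in Kmt5b shRNA libraries and 720, 509 and 515 CPM in GFP libraries. The groups did not overlap, and the log2 difference was 0.89 ± 0.16 (SE, adjusted p = 0.0022 by edgeR). Hsp90ab1, the constitutive HSP90 beta, had 1406, 1522 and 1407 CPM in Kmt5b shRNA libraries and 1566, 1231 and 1271 CPM in GFP libraries. Its groups overlapped, with a log2 difference of 0.09 ± 0.11 (adjusted p = 0.788). The difference between the responses of these genes was not tested.

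Copies of both HSP90 genes held a smaller share of reads in the Kmt5b shRNA libraries. Those of Hsp90aa1 held 1.14 ± 0.02% of the reads of gene and copies in Kmt5b shRNA libraries and 36.5 ± 0.87% in GFP libraries, and those of Hsp90ab1 held 0.069 ± 0.0056% in Kmt5b shRNA libraries and 0.254 ± 0.056% in GFP libraries (SD, n = 3 each). Most reads of the Hsp90aa1 copies lay on Gm12346, a transcribed processed pseudogene annotated with more than 1 exon, at chr11:77293444-77295898 on the plus strand. Gm12346 had 8.01, 10.8 and 7.07 CPM in Kmt5b shRNA libraries and 305.3, 207.6 and 228.0 CPM in GFP libraries. Of all annotated copies of the 33 genes it had the most reads in the GFP group, 44642 counts over the group, against 1345 counts over the Kmt5b shRNA group. Gene and copies together gave 999, 1319 and 927 CPM in Kmt5b shRNA libraries and 1133, 798 and 829 CPM in GFP libraries. The groups then overlapped, and the log2 difference of 0.23 ± 0.16 did not pass (adjusted p = 0.632 by edgeR). With the intronless copies alone, which leaves Gm12346 out, it was 0.68 ± 0.16 and passed with an adjusted p of 0.042. That call was kept in 2 of the 6 fits that leave out a library.

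**Figure D2:**
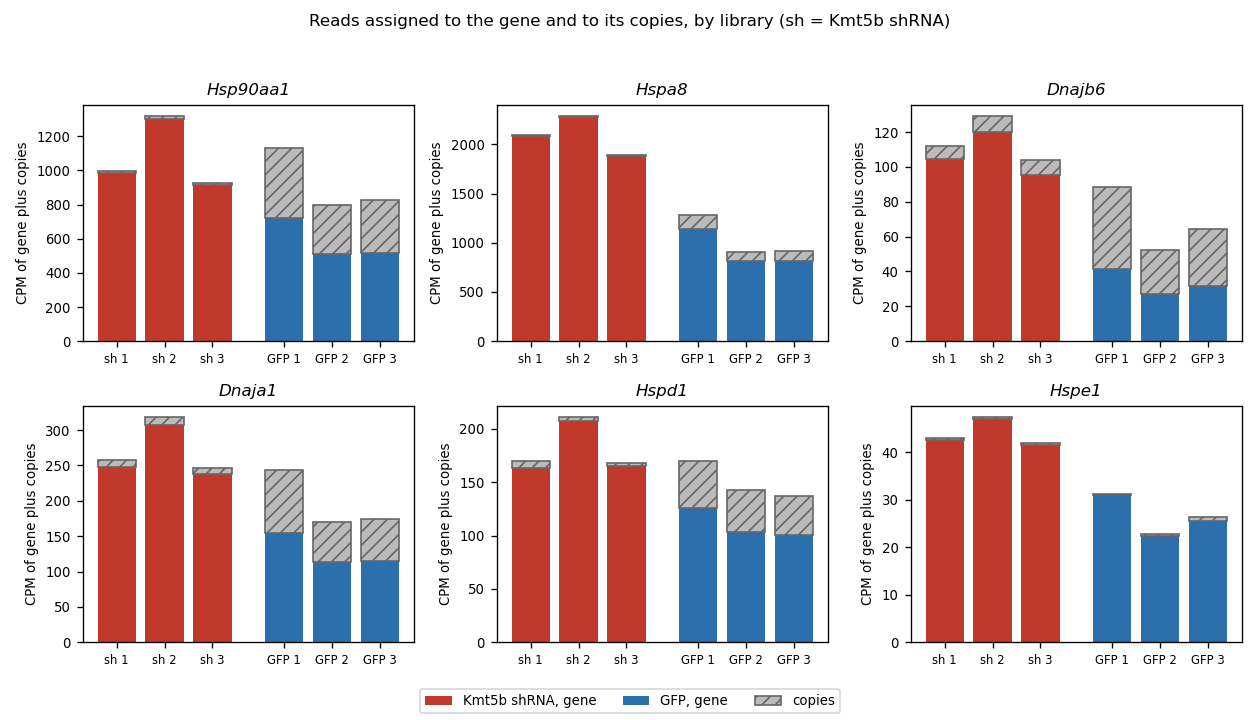
CPM assigned to 6 chaperone genes (solid, red for Kmt5b shRNA and blue for GFP) and to their annotated copies (hatched), stacked for each library. The hatched part is thin in every Kmt5b shRNA library and holds about 36.5% of the Hsp90aa1 bar and 50.8% of the Dnajb6 bar in GFP libraries, while Hspe1 has almost no hatched part in either group.

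The co-chaperones of HSP90 and HSP70 did not pass the test. Stip1 links HSP70 to HSP90, Ahsa1 speeds the HSP90 ATPase, St13 binds HSP70, Fkbp4 is an immunophilin of steroid receptor complexes and Chordc1 is a zinc-binding HSP90 partner. None of the 5 had an unadjusted p under 0.05 and their log2 differences ran from −0.11 to 0.16. Stip1, the most abundant per kilobase, had 195.8, 194.5 and 178.3 CPM in Kmt5b shRNA libraries and 198.2, 167.7 and 142.2 CPM in GFP libraries, and the groups overlapped.

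Of the small heat shock proteins, which hold unfolded proteins in solution without ATP, Hspb1 encodes HSP25 of mice and lies on chromosome 5 from 135887919 to 135889563. Hspb1 had 8.54, 4.76 and 8.07 CPM in Kmt5b shRNA libraries and 2.72, 2.02 and 1.24 CPM in GFP libraries. The log2 difference of 1.84 ± 0.30 (SE, adjusted p = 0.00080 by edgeR) was the largest of the 33 genes, in a gene whose level per kilobase ranked 28 of 33. These are 486, 221 and 443 counts in Kmt5b shRNA libraries and 182, 62 and 97 counts in GFP libraries. Its copy Hsp25-ps1 had 0 counts in every Kmt5b shRNA library and 14, 13 and 11 counts in GFP libraries. With that copy added, Hspb1 stayed higher by 1.66 ± 0.29 (adjusted p = 0.0089), although without Kmt5b shRNA replicate 1 the adjusted p was 0.052. Gm9817, a protein-coding gene model that matches Hspb1 over 493 bases at 99.8% identity, held 7, 6 and 7 counts in Kmt5b shRNA libraries and 2, 8 and 12 counts in GFP libraries, few beside those of Hspb1.

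Hspb8, a partner of Bag3 in selective autophagy, lies on chromosome 5 from 116408491 to 116422864, has no annotated copy and had 20.1, 15.9 and 17.8 CPM in Kmt5b shRNA libraries and 13.4, 13.6 and 13.2 CPM in GFP libraries. The GFP libraries were close together and all below the Kmt5b shRNA libraries. The log2 difference was 0.43 ± 0.12 (adjusted p = 0.037 by edgeR), a call that was kept in 1 of the 6 fits that leave out a library. The highest adjusted p of these was 0.244, when Kmt5b shRNA replicate 1 was left out. Where copies were added to their genes, Hspb8 differed by 0.41 ± 0.12 with an adjusted p of 0.112 on the same counts of its own.

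Cryab, alpha B-crystallin, is abundant in oligodendrocytes and astrocytes. It had 29.3, 37.7 and 42.2 CPM in Kmt5b shRNA libraries and 48.9, 38.1 and 38.5 CPM in GFP libraries, with a log2 difference of −0.20 ± 0.14 (adjusted p = 0.538 by edgeR). The summed CPM of 8 oligodendrocyte markers was 1524, 2764 and 3221 in Kmt5b shRNA libraries and 4244, 2771 and 3046 in GFP libraries, lowest in the library with the lowest Cryab and highest in the library with the highest. None of the 8 markers passed, their median log2 difference was −0.42, and their part in the Cryab values was not tested.

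In mitochondria, Hspd1 encodes HSP60 and Hspe1 its lid HSP10, and the genes sit head to head on chromosome 1, Hspd1 from 55077835 to 55088243 on the minus strand and Hspe1 from 55088132 to 55091307 on the plus strand. Hspd1 had 164.4, 208.2 and 166.3 CPM in Kmt5b shRNA libraries and 124.8, 102.4 and 99.9 CPM in GFP libraries. Hspe1 had 42.8, 47.1 and 41.7 CPM in Kmt5b shRNA libraries and 30.8, 22.2 and 25.4 CPM in GFP libraries. Neither gene overlapped between the groups, and the log2 differences were similar, 0.72 ± 0.12 for Hspd1 (adjusted p = 0.00063) and 0.74 ± 0.12 for Hspe1 (adjusted p = 0.00047) by edgeR.

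The genes of this mitochondrial pair differ in how many reads fell on copies. Hspd1 has 8 copies, which held 2.38 ± 1.18% of the reads in Kmt5b shRNA libraries and 26.8 ± 0.83% in GFP libraries, most of them on Hspd1-ps3. The 4 copies of Hspe1 held 1.11 ± 0.20% in Kmt5b shRNA libraries and 2.13 ± 0.95% in GFP libraries, and these shares overlapped (SD, n = 3 each). With copies added, Hspd1 had 169.8, 210.8 and 168.1 CPM in Kmt5b shRNA libraries and 169.8, 142.7 and 136.8 CPM in GFP libraries, and its log2 difference of 0.29 ± 0.12 did not pass (adjusted p = 0.310). Hspe1 kept a log2 difference of 0.71 ± 0.12 and passed with an adjusted p of 0.0032. Hspa9, the mitochondrial HSP70, had 246.1, 274.1 and 247.5 CPM in Kmt5b shRNA libraries and 277.4, 250 and 231.3 CPM in GFP libraries, and neither it nor Trap1, the mitochondrial HSP90, passed (log2 differences of 0.02 ± 0.10 and −0.14 ± 0.10).

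**Figure D3:**
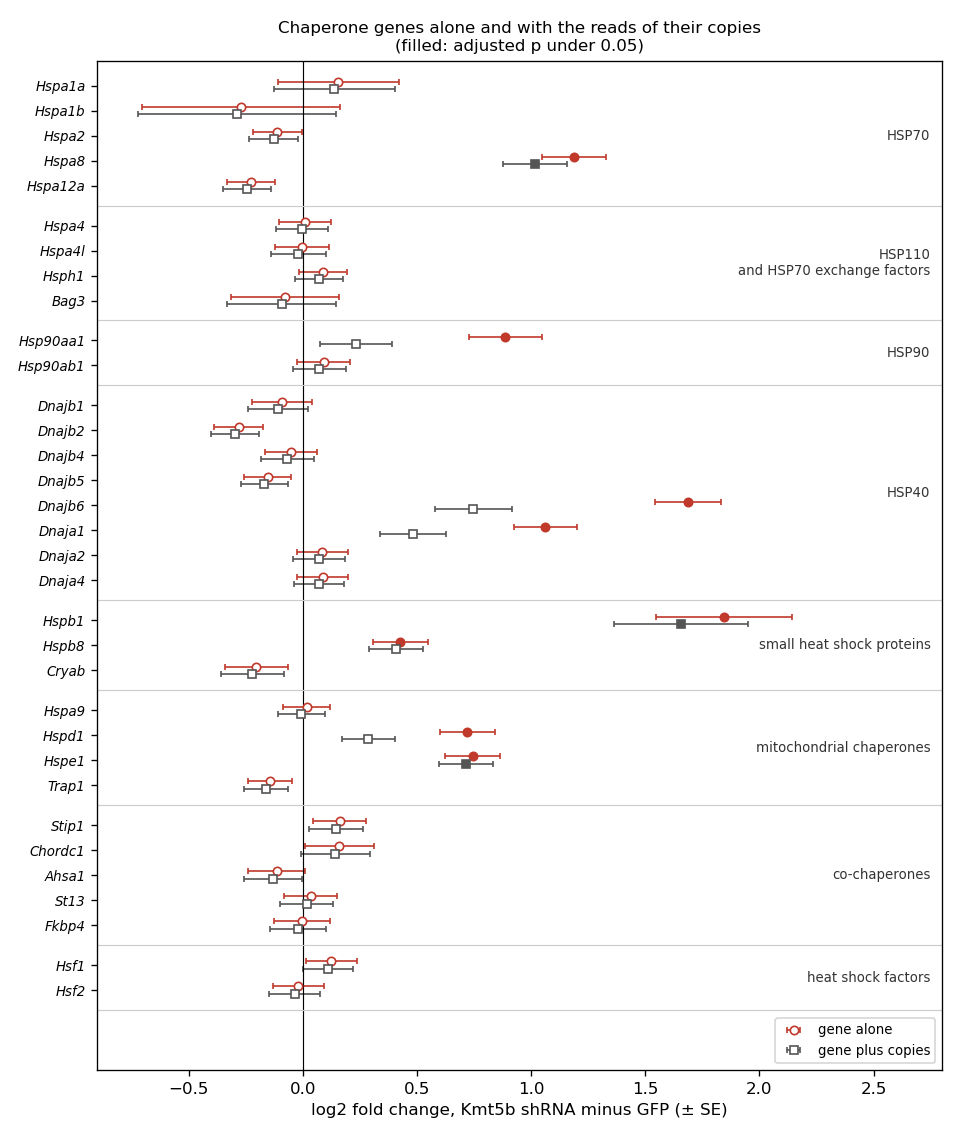
Log2 difference (Kmt5b shRNA minus GFP, ± SE) of the 33 chaperone genes by family, for the gene alone (red circles) and for the gene plus its annotated copies (grey squares). Filled symbols passed an adjusted p under 0.05. Hspa8, Hspb1 and Hspe1 are filled in both fits, whereas the squares of Hsp90aa1, Dnajb6, Dnaja1 and Hspd1 lie well left of their circles.

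The heat shock element, to which Hsf1 and Hsf2 bind, is built of GAA units in alternating orientation. Promoter sequences of RefSeq (GRCm38.p6) were found for 26 of the 33 genes, among them 6 of the 8 that passed. A pair of units, GAANNTTC or TTCNNGAA, each of which reads the same on both strands and may overlap the other, was present in the 250 bases before the start of 11 of the 26 genes and of 14.5% of 27025 genes. A run of 3 units, in which both kinds of pair share their middle unit, was present in 3 of the 26, Dnajb6, Hspd1 and Hspe1, and in 0.514% of all. Hspa1a, Hspa1b, Hsph1, Dnajb4, Dnaja4 and Fkbp4, which did not pass, hold a pair as well, and Hspb8 holds none in this window. The 2 sequences below belong to genes that stayed higher with copies added, with the matching bases in capitals. Hspe1 is at chr1:55087898-55088147 and Hspb1 at chr5:135887669-135887918, both on the plus strand.
Hspe1: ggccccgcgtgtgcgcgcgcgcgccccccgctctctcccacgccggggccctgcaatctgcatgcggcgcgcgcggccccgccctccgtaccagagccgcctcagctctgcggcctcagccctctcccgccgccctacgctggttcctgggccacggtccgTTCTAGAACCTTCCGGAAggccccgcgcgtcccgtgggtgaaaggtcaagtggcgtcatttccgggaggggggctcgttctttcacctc
Hspb1: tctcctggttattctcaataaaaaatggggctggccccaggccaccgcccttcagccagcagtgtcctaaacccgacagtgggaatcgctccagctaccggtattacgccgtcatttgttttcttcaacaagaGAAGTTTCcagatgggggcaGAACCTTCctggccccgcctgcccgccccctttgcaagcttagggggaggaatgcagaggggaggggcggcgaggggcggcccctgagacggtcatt
In Hspe1 the 3 pairs form 1 block, in a stretch that the divergent Hspd1 shares, while in Hspb1 the 2 pairs are apart. A match of letters is a description and no evidence of binding.

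Of the 44 copies, 38 had at least 1 count and 27 passed the filter on low counts. Of these, 20 were lower in Kmt5b shRNA libraries, none was higher and 7 did not pass by edgeR, with a median log2 difference of −2.21. Among copies of any gene, 54.6% of 1956 tested were lower. Over the 11 genes that have a copy, the copies took 0.935%, 0.853% and 0.849% of the reads of gene and copies in Kmt5b shRNA libraries. In GFP libraries they took 14.8%, 13.9% and 14.4%. Of the 15 tested copies with at least 97% identity to their gene, 13 were lower, with a median of −2.67, and of the 12 less alike, 7 were lower, with a median of −1.30. Spearman's rho between identity and log2 difference was −0.51 over the 27 copies, which share libraries and, in many cases, a gene, so it is a description.

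**Figure D4:**
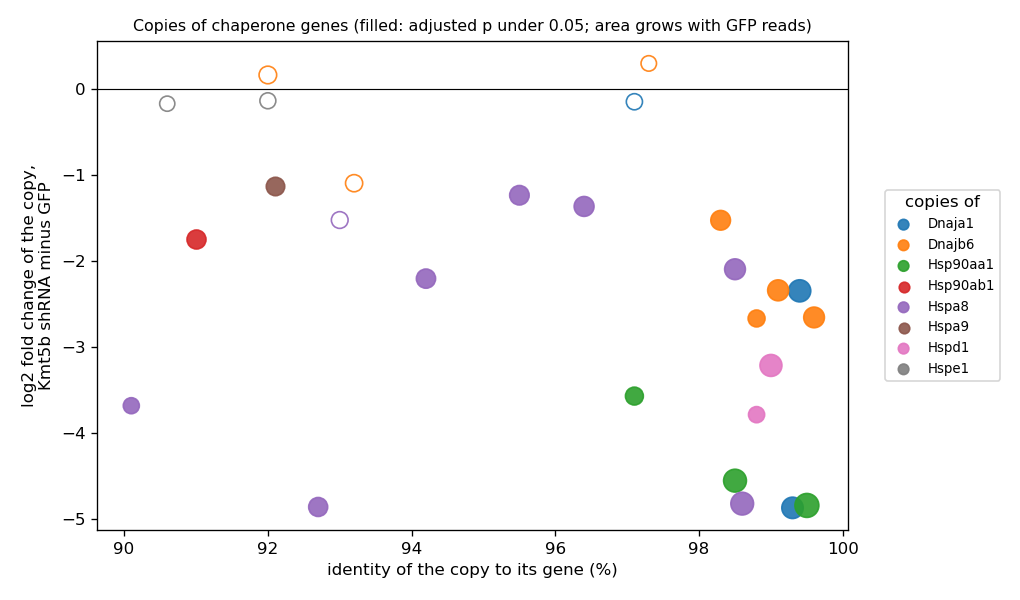
Log2 difference (Kmt5b shRNA minus GFP) of the 27 tested copies against their percent identity to the gene, coloured by gene. Filled points passed an adjusted p under 0.05 and larger points had more reads in GFP libraries. The copies with the most reads lie at the right, at 98% identity and above, and below −2.

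Gm7816, a copy of Dnaja1, had 0.685, 0.861 and 0.820 CPM in Kmt5b shRNA libraries and 28.9, 19.6 and 20.6 CPM in GFP libraries. Gm5844, a copy of Hsp90aa1, had 3.48, 4.05 and 3.37 CPM in Kmt5b shRNA libraries and 101.3, 75.0 and 79.5 CPM in GFP libraries. In both pairs the gene alone was higher and the copy lower in the Kmt5b shRNA libraries. The deposited counts do not show whether a read placed on a copy came from it, and the part of read assignment in these differences was not tested. Whether both groups were aligned and counted the same way was not given in the sources used here. This bears on every difference given, for a gene alone or with its copies added.

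When only protein-coding genes that share no sequence with another gene were fitted, 17 of the 33 chaperone genes were tested and none passed by edgeR, where 0.438% of 11181 genes were higher and 0.197% were lower. At an unadjusted p under 0.05, 3 of the 17 passed in either direction, near the 14.8% of all genes in that fit. DESeq2 called 1 of the 17, Hspb8, where it called 268 genes higher and 187 lower of 11181. None of the other 7 genes of the main result is among these 17, so they have no value there.

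As RPKM, CPM divided by the exon length in kilobases, Hsp90ab1, Hspa8 and Hsp90aa1 stood highest. Hsp90ab1 averaged 481.9 ± 22.3 RPKM in Kmt5b shRNA libraries and 452.0 ± 61.0 RPKM in GFP libraries. Hspa8 averaged 487.3 ± 45.5 RPKM in Kmt5b shRNA libraries and 213.7 ± 44.2 RPKM in GFP libraries, and Hsp90aa1 averaged 273.6 ± 52.7 RPKM in Kmt5b shRNA libraries and 147.9 ± 30.5 RPKM in GFP libraries (SD, n = 3 each). In level, Hspa8 alone thus overlapped Hsp90ab1 in Kmt5b shRNA libraries and lay below it in every GFP library. These levels leave out reads placed on copies. In GFP libraries copies held 10.7% of the reads of gene and copies for Hspa8, 36.5% for Hsp90aa1 and 0.254% for Hsp90ab1. At the other end were Hspa1b, Bag3 and Hspa1a, the last with 0.765 ± 0.060 RPKM in Kmt5b shRNA libraries and 0.691 ± 0.195 RPKM in GFP libraries.

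**Figure D5:**
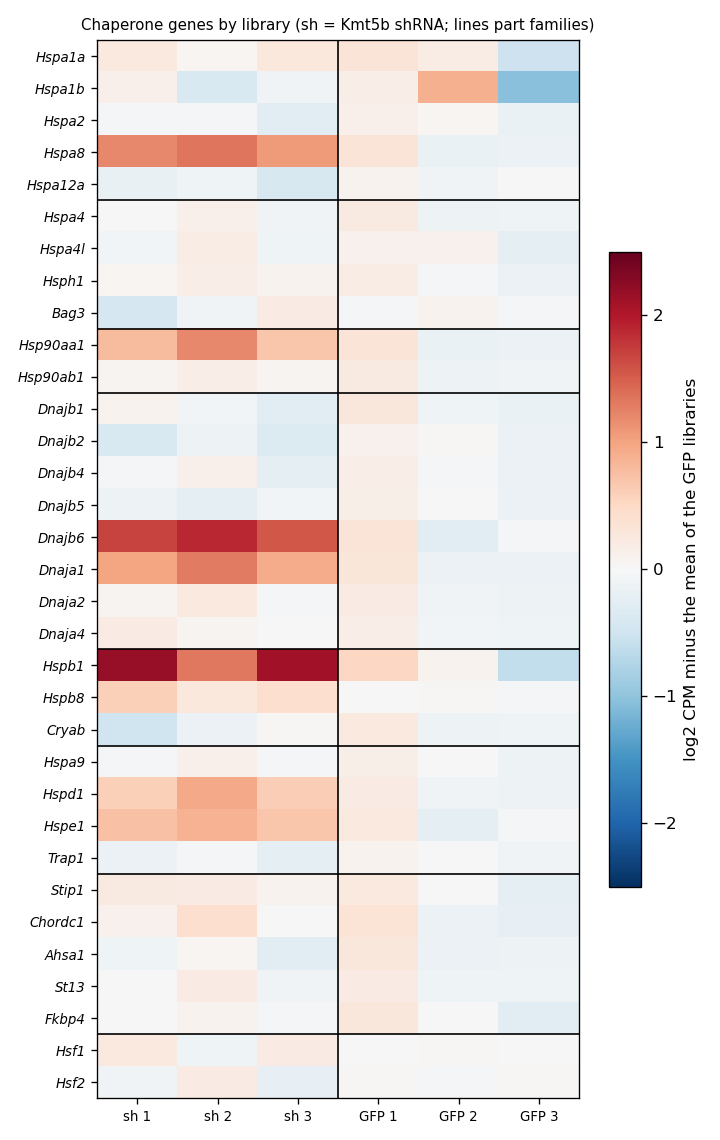
Log2 CPM of each chaperone gene in each library minus the mean of the GFP libraries, with Kmt5b shRNA libraries (sh) on the left, GFP libraries on the right and lines between families. The strongest red lies in Hspb1, Dnajb6, Hspa8, Dnaja1 and Hsp90aa1 in the 3 Kmt5b shRNA columns, and GFP replicate 1 is the reddest GFP column.

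Within each group, 1 library was often the highest. Kmt5b shRNA replicate 2 was the highest of its group in 21 of the 33 genes (63.6%), where it was highest in 35.8% of all genes tested. GFP replicate 1 was the highest of its group in 27 of the 33 genes (81.8%), where it was highest in 35.8% of all genes tested. It had the highest value of its group in 7 of the 8 genes that passed, Hspb8 being the exception.

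Few of the further chaperone genes of the pathway passed. Of 31 tested further HSP40 genes, 8 subunits of the TRiC chaperonin, which folds actin and tubulin, and 6 of prefoldin, which feeds it, none passed by edgeR, with 2 HSP40 genes and none of the others at an unadjusted p under 0.05, a mark that 17.4% of all genes passed. Their median log2 differences were −0.01, 0.09 and 0.03. A mixed list of 36 further genes held HSP70 and HSP90 partners, HSP70 genes, small heat shock proteins, heat shock factors and mitochondrial proteases. Of these 36, 1 passed, the HSP90 co-chaperone Ptges3 (p23). It had 103.4, 123.4 and 96.6 CPM in Kmt5b shRNA libraries and 89.8, 64.0 and 59.2 CPM in GFP libraries, a log2 difference of 0.60 ± 0.15 (adjusted p = 0.024). Ptges3 has 2 copies, and with these added it differed by 0.13 ± 0.14 (adjusted p = 0.800).

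Few cell type markers passed beside these genes. Of 8 astrocyte markers 2 were lower, Aqp4 and Gja1, with a median log2 difference of −0.17 over the list, and 2 that did not pass had values above 0, Gfap at 0.39 and Sox9 at 0.26. Of 5 oligodendrocyte precursor markers 1 was higher, Olig2, at 0.54 ± 0.14 (SE, adjusted p = 0.021 by edgeR), with a list median of 0.11. Olig2 has no copy of its own. In the refit with copies added to their genes its log2 difference was 0.52 ± 0.14, and it did not pass (adjusted p = 0.071). No marker of the 8 neuronal, 7 microglial, 6 endothelial or 4 mural markers passed by edgeR. The summed CPM of the endothelial markers was 254.8, 242.7 and 263.7 in Kmt5b shRNA libraries and 245.9, 256.0 and 226.4 in GFP libraries. Ependymal and choroid plexus markers summed to 6.94, 6.09 and 10.2 CPM in Kmt5b shRNA libraries and 5.55, 9.47 and 8.10 CPM in GFP libraries. The part of cell composition in the chaperone values was not tested.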

How the data were processed

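The authors deposited raw read counts per gene symbol for 6 libraries. Per the labels' protocols, ribosomal RNA was removed before stranded library construction, and TopHat2 placed Cutadapt-trimmed reads on RefSeq mRNAs. STAR, featureCounts, DESeq2 and mm10 are named instead per the submitters' processing notes, so the sources differ in the aligner, and neither says whether both groups were processed alike. The strand setting of the counting was not given in the sources used here. The titles gave group and replicate number. The members, gene lists and tests were chosen with earlier results of these data known.

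The test was edgeR 4.0.16 in R 4.3.3 (filterByExpr, TMM, robust glmQLFit with legacy=TRUE, Benjamini-Hochberg adjustment over all tested genes). SE is the log2 difference divided by the square root of F, without its sign. CPM uses TMM library sizes. RPKM divides CPM by the union of annotated exons in kilobases. The mean chi-square between replicates was 18.2 to 45.0 per gene, above sampling noise, and total counts from 29490771 to 74723284 set the precision of low genes.

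Copies were found with BLAST 2.17.0 among GENCODE M21 transcripts, from matches of at least 100 bases and 90% identity. A copy had to be covered over at least 50% by a spliced coding gene. It was intronless, or a processed pseudogene with more than 1 exon, a kind added after the data were seen. Genes sharing no sequence had no match of 200 bases to another coding gene or a pseudogene. Names were matched for 53825 of 54429 rows. Values in every library are given for genes that passed, for Hspa1a, Hspa1b, Hsf1 and Hsf2 and for the gene of highest level per kilobase in each family. Bag3, Dnajb1, Dnajb2, Hspa12a, Gfap, Sox9 and some copies were named after their values were seen. Alternatives were DESeq2 1.42.0, other scalings, no filter on low counts, a replicate block, the removal of single libraries and the removal of 393 rows of mitochondrial or ribosomal RNA. The tests were checked on simulated counts.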

Additional observations from a re-analysis of the deposited data

How the results depend on the processing

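The count of chaperone genes that passed lay between 7 and 8 under every alternative run for the fit of all genes. With intronless copies added it was 5, and 3 once processed pseudogenes with more than 1 exon were added too. Leaving out a library gave 3 to 6 for the fit with intronless copies, and no filter on low counts or DESeq2 gave 7 each, with Dnaja1 and Hspb8 as well. For the fit with all copies it gave 2 to 5, the lowest without Kmt5b shRNA replicate 1 and the highest without GFP replicate 1, and the same fit gave 5 with no filter on low counts and 6 with DESeq2, which passed Dnaja1, Dnajb6 and Hspb8 as well. Among genes sharing no sequence, DESeq2 called 1 where edgeR called 0. Hspa8 and Hspe1 passed in every fit that tested them, and Hspb1 in all but the fit with all copies added and without Kmt5b shRNA replicate 1. Deviations from group means correlated at −0.03, −0.01 and 0.22 between libraries of the same number and at −0.20 to 0.21 between libraries of different numbers. These values cannot decide whether the replicate numbers pair the libraries. The replicate block gave 7 for all genes, where Hspb8 had an adjusted p of 0.050, 5 with intronless copies, 4 with all copies and 0 among genes sharing no sequence. Signs turned only in genes that did not pass. The summed Hspa1a and Hspa1b ran from −0.48 to 0.24 when a library was left out. Hspa4 was −0.0040 with upper quartile scaling. Hspa4l was 0.0085 with DESeq2 size factors, 0.00094 with no filter and 0.0085 with DESeq2. Fkbp4 was 0.0066 with DESeq2 size factors, 0.0066 with DESeq2 and 0.011 under the replicate block. Leaving out a library gave log2 ranges of −0.071 to 0.34 for Hspa1a, −0.65 to 0.23 for Hspa1b, −0.050 to 0.13 for Hspa4, −0.11 to 0.065 for Hspa4l, −0.24 to 0.075 for Bag3, −0.18 to 0.071 for Dnajb1, −0.15 to 0.048 for Dnajb4, −0.043 to 0.091 for Hspa9, −0.19 to 0.047 for Ahsa1, −0.056 to 0.15 for St13, −0.13 to 0.15 for Fkbp4 and −0.14 to 0.078 for Hsf2. Apart from fewer genes or libraries in a fit, the cause of these shifts was not tested. Depth limits Hspa1a, Hspa1b, Bag3 and Hspb1, each below 10 CPM in every library.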
